A study of Drosophila melanogaster with 16 samples.

Results

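Whole Drosophila melanogaster larvae carrying an RNAi construct against grain (grn) were compared with control larvae after 8 h on a high sugar diet (HSD). The comparison used all genes that passed a filter on low values, 9950 of the 9982 in the deposited table, in 8 of the 16 RNA-seq libraries of the series. The libraries labelled grn RNAi came from larvae with the ubiquitous Tub-GAL4 driver and a TRiP grn RNAi line, and the control libraries from larvae with the same driver and a TRiP control insertion. All of these larvae were first kept on a low sugar diet (LSD) of 10% yeast, and those on HSD then received 10% yeast with 15% added sugar. The other 8 libraries, 4 labelled grn RNAi and 4 control, came from larvae that stayed on LSD. Each library was made from 20 pooled larvae, with 4 libraries in each group, and no source used here says whether the replicates came from separate cultures. The p-values therefore measure the spread between these libraries. The sample titles and source names, which set the groups here, differ from another field of the labels that calls the LSD samples wild type and the HSD samples an erk7 mutant. The labels give the third instar as the stage, while the growth protocol describes transfer of early second instar larvae. The larvae labelled grn RNAi and the control larvae are progeny of different lines, so that a difference between the lines and a response to the RNAi cannot be told apart.

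grain encodes a zinc finger transcription factor of the GATA family, whose members bind short DNA motifs with a GATA core and are known for roles in the gut, the fat body, blood cells and the epidermis of flies. On a sugar-rich diet, larvae are known to raise genes for glycolysis and fatty acid synthesis and to lower genes for digestive enzymes. The larval cuticle is built from chitin and secreted cuticle proteins, and its genes are switched on and off around each moult under the control of ecdysone, so that they differ strongly between larvae that differ little in age.

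The values are normalized CPM, which are counts per unit of sequencing depth after a scaling made by the authors, and all fold changes are on the log2 scale of normalized CPM plus 0.5, labelled grn RNAi over control. Values of single libraries are given in the order of replicates 1 to 4. The HSD libraries held 24310235 to 32254855 recovered reads in the 4 libraries labelled grn RNAi and 25379428 to 27605460 in the 4 controls, and no pair of libraries was alike within sampling noise. On the second principal component, which carried 16.2% of the variance and separated the diets, grn RNAi replicate 4 (-4.34) and control replicate 3 (-7.67) were the HSD libraries nearest to the LSD libraries, which lay between 10.09 and 27.74. Some counts below are also given without these 2 libraries.

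The targeted gene went against the label. The libraries labelled grn RNAi had 207, 223, 231 and 215 normalized CPM of grn (FBgn0001138, 3R:8147368-8181444, minus strand, Release 6), against 20.1, 21.6, 23.4 and 17.1 in control libraries. The groups did not overlap, the ratio of their means was 10.7, and the log2 fold change was 3.39 ± 0.10 (SE, limma adjusted p = 1.2e-11). On LSD the means were 239 and 18.1 normalized CPM and the log2 fold change was 3.70. The paper, in contrast, reports lower grain expression than in controls for both of the grn RNAi lines it used. That measurement was separate from these libraries. The counts are per gene and do not show where in the gene the reads lie, and the cause was not tested. The wording "the libraries labelled grn RNAi" is used for this reason, and every direction below is that of the labelled libraries.

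The largest fold change of any gene called lower was that of yellow (y), which is needed for dark cuticle pigment and is used as a visible marker in fly stocks. The libraries labelled grn RNAi had 20, 30.9, 21.1 and 32.7 normalized CPM of y, against 2265, 2193, 2213 and 2176 in controls, a log2 fold change of -6.41 ± 0.16 (limma adjusted p = 2.7e-12). The replicates of each group lay close together and far from the other group. vermilion (v), the tryptophan dioxygenase of eye pigment synthesis, which is another marker used in stocks, had 14.8, 19.2, 14.6 and 14 normalized CPM in the libraries labelled grn RNAi, against 37.7, 29.6, 30.7 and 29.9 in controls (log2 fold change -1.01 ± 0.09, limma adjusted p = 1.5e-06). Of the 10 eye pigment and line marker genes, 3 were lower and 0 higher, beside 21.2% and 17.9% of all genes. The median of this list was 0.02. With quantile normalization 3 were lower and 2 higher, and with plain CPM of the recovered reads 2 were lower and 3 higher.

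Of the 9950 genes tested on HSD, 3894 were called at an adjusted p under 0.05 (39.1%), with 1785 (17.9%) at higher and 2109 (21.2%) at lower levels under the grn RNAi label. The lower genes changed more. Their median log2 fold change was -0.49, that of the higher genes was 0.30, and 2511 of the called genes changed by less than 0.5 in size. A log2 fold change of at least 1 was found for 617 lower and 123 higher genes, of at least 2 for 314 and 19, and of at least 4 for 35 and 1, the 1 being CG10081. The groups of 4 libraries did not overlap at all for 3847 genes (38.7%), of which 1862 (18.7%) were higher and 1985 (19.9%) lower. Genes known only by a CG or CR number made up 53.4% of the lower genes and 40.9% of the higher genes, against 45.2% of all genes tested.

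The balance of higher and lower calls depended on the scaling. Over all genes, the median log2 fold change was 0.01 with the authors' scaling, 0.02 with median-of-ratios scaling, 0.13 with quantile normalization and 0.15 with plain CPM of the recovered reads. Quantile normalization gave 3923 higher and 1441 lower calls, and plain CPM gave 4209 and 1392. Small changes shared by a whole gene group, in ribosomes and mitochondria above all, are therefore given below with their counts under these scalings, while the medians of the cuticle, lysozyme and protease lists, at -0.52 or below, were larger in size than the shift. Without grn RNAi replicate 4 and control replicate 3 together, 1353 genes were higher and 1866 lower.

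**Figure D1:**
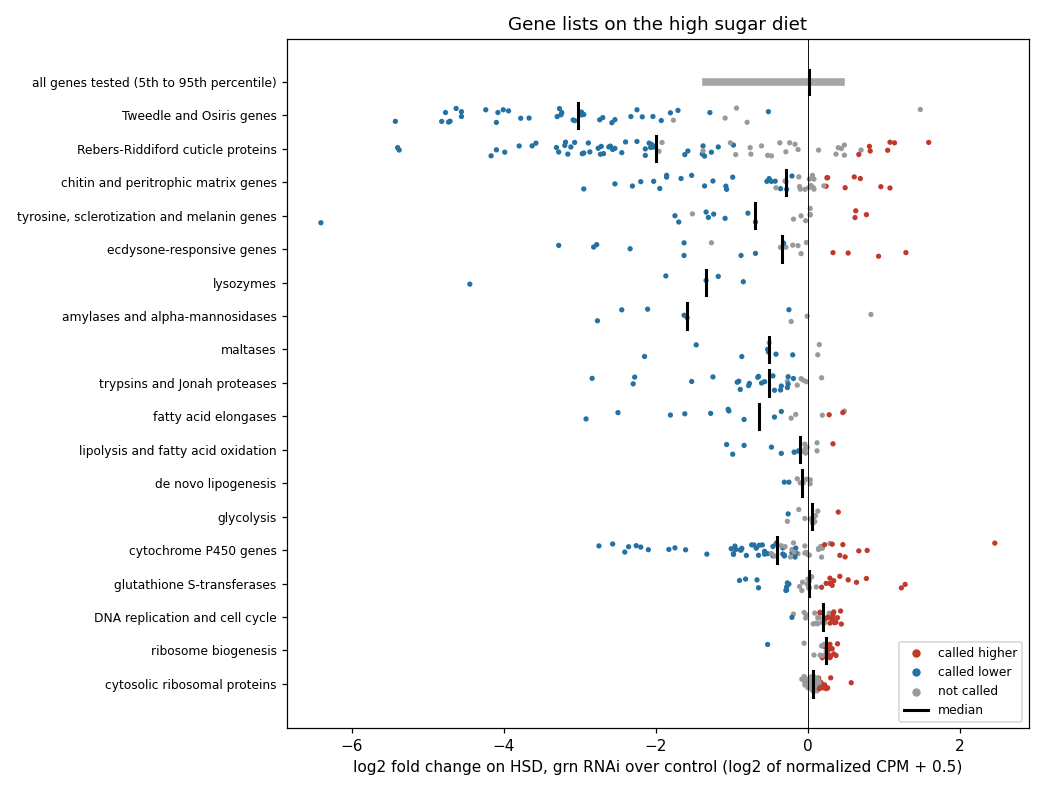
Log2 fold change on HSD, labelled grn RNAi over control (horizontal axis), of every tested member of 18 gene lists, with called members in colour, the list median as a black bar, and the 5th to 95th percentile of all genes as a grey bar at the top. The cuticle lists reach -5.43 with medians of -3.03 and -2.0, whereas the ribosomal protein list stays between -0.08 and 0.57.

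Genes of the cuticle had the lowest median fold changes of the gene lists. The Tweedle family encodes cuticle proteins that shape the body, and the Osiris family encodes membrane proteins of epithelia that secrete cuticle. Of the 42 Tweedle and Osiris genes tested, 37 were lower and 0 higher, with a median log2 fold change of -3.03, beside 21.2% of all genes lower and a median of 0.01. Among the Tweedle genes 23 of 27 were lower (median -3.78), and among the Osiris genes 14 of 15 (median -2.54). Of the 74 cuticle proteins with a Rebers-Riddiford chitin-binding domain, 45 were lower and 7 higher, with a median of -2.0. With quantile normalization 37 of the 42 and 44 of the 74 were lower, and with plain CPM 37 and 45. With the 2 libraries left out, 38 of the 42 and 43 of the 74 were lower. The edgeR quasi-likelihood test on recovered reads called 28 of the 42 lower. Fewer cells of a type and less RNA per cell cannot be told apart in whole larvae, here or in any result below.

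Many of these genes varied greatly among replicates. The median standard deviation of log2 values for Tweedle and Osiris genes was 0.96 within the libraries labelled grn RNAi and 0.81 within controls, against 0.09 and 0.11 for all genes. Of the 15 genes with the largest fold change among the lower genes, 13 had a library labelled grn RNAi more than 10 times as high as the lowest one of the group, after adding 0.5. Of the 15 at the higher end, none did.

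Among the variable genes, a first set was high in replicates 2 and 4. TwdlM had 9.17, 241, 3.48 and 415 normalized CPM in the libraries labelled grn RNAi, against 819, 881, 1752 and 1151 in controls (log2 fold change -4.63 ± 1.30, limma adjusted p = 0.011). TwdlL had 3.34, 70.4, 2.62 and 171 normalized CPM in the libraries labelled grn RNAi, against 199.8, 269.9, 806 and 418 in controls (-4.24 ± 1.21, limma adjusted p = 0.013). In both genes replicates 2 and 4 labelled grn RNAi lay far above replicates 1 and 3, yet under every control. CG17290, CG14961 and CG14095, which are known only by number, were high in the same replicates, at 0.944, 76.5, 1.25 and 201 normalized CPM for CG17290 in the libraries labelled grn RNAi, against 218, 278, 897 and 468 in controls. Their fold changes of -4.83, -4.37 and -4.37 were called with adjusted p of 0.027, 0.017 and 0.019 by limma. These calls did not hold under every alternative. The call of CG17290 was lost without any 1 of grn RNAi replicates 1 and 3 and control replicates 3 and 4 (-4.75 to -3.73, adjusted p of 0.054 to 0.091), and those of CG14961 and CG14095 without grn RNAi replicate 1 (-3.50 and -3.40, adjusted p = 0.06 and 0.067) or replicate 3 (-3.64 and -3.63, adjusted p = 0.057 and 0.064), all by limma. CG17290 also missed the threshold with edgeR (-2.73, adjusted p = 0.12) and DESeq2 (adjusted p = 0.067), and CG14095 with edgeR (-2.89, adjusted p = 0.069), DESeq2 (adjusted p = 0.091) and limma voom (adjusted p = 0.066). TwdlM and TwdlL missed it with edgeR, both at -2.78 (adjusted p = 0.064 and 0.065).

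A second set was high in replicate 3 labelled grn RNAi and low in replicate 3 of the controls. Tubby (Tb), another Tweedle gene, had 17.1, 11.8, 112 and 0.438 normalized CPM in the libraries labelled grn RNAi, against 582, 233, 119 and 434 in controls (log2 fold change -4.56 ± 1.32, limma adjusted p = 0.013, with edgeR -3.28 and adjusted p = 0.069). The highest library labelled grn RNAi and the lowest control were nearly level. CG2962 (18.8, 18, 129 and 1.69 against 737, 346, 162 and 526), CG15731, CG3108 and CG5756 were highest and lowest in the same libraries, with log2 fold changes from -4.44 to -4.31 and limma adjusted p from 0.00098 to 0.0091. In a further 3 genes, 1 library labelled grn RNAi lay above the other 3. Cpr67Fb had 0.978, 43.1, 0.274 and 2.28 normalized CPM in the libraries labelled grn RNAi, against 139, 168, 144 and 131 in controls, with replicate 2 far above the others. TwdlD was also high in replicate 2 only (27.3 against 0.978 to 2.19 in the other 3 libraries labelled grn RNAi), and Lcp9 was above 1 in replicate 4 only.

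Other cuticle genes were low in every library labelled grn RNAi, with smaller fold changes and without such spread. TwdlV had 53.1, 63.3, 45 and 49.8 normalized CPM in the libraries labelled grn RNAi, against 418, 336, 279 and 355 in controls (log2 fold change -2.70 ± 0.13, limma adjusted p = 2e-09). TwdlE was lower by -2.58 ± 0.14, Cpr64Ad by -2.89 ± 0.15, Cpr30F by -3.07 ± 0.22, Cpr35B by -2.14 ± 0.14 and Cpr97Ea by -2.54 ± 0.19 on the log2 scale, with adjusted p of 1.8e-07 or less by limma and no overlap. Cpr64Ad lay between 129.7 and 205 normalized CPM in the libraries labelled grn RNAi and between 1159 and 1399 in controls. Osiris genes lay between these patterns. Osi6 had 111, 291, 278 and 288 normalized CPM in the libraries labelled grn RNAi, against 3597, 3592, 1085 and 1742 in controls (-3.30 ± 0.62, limma adjusted p = 0.00072), so that the spread was wider in the controls. Osi7 (-3.24), Osi2 (-3.25) and Osi15 (-1.81) were lower as well. CG31626 and CG7406, which are among the genes with the largest difference in level, had means of 144 and 282 normalized CPM in the libraries labelled grn RNAi, against 1344 and 1534 in controls.

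**Figure D2:**
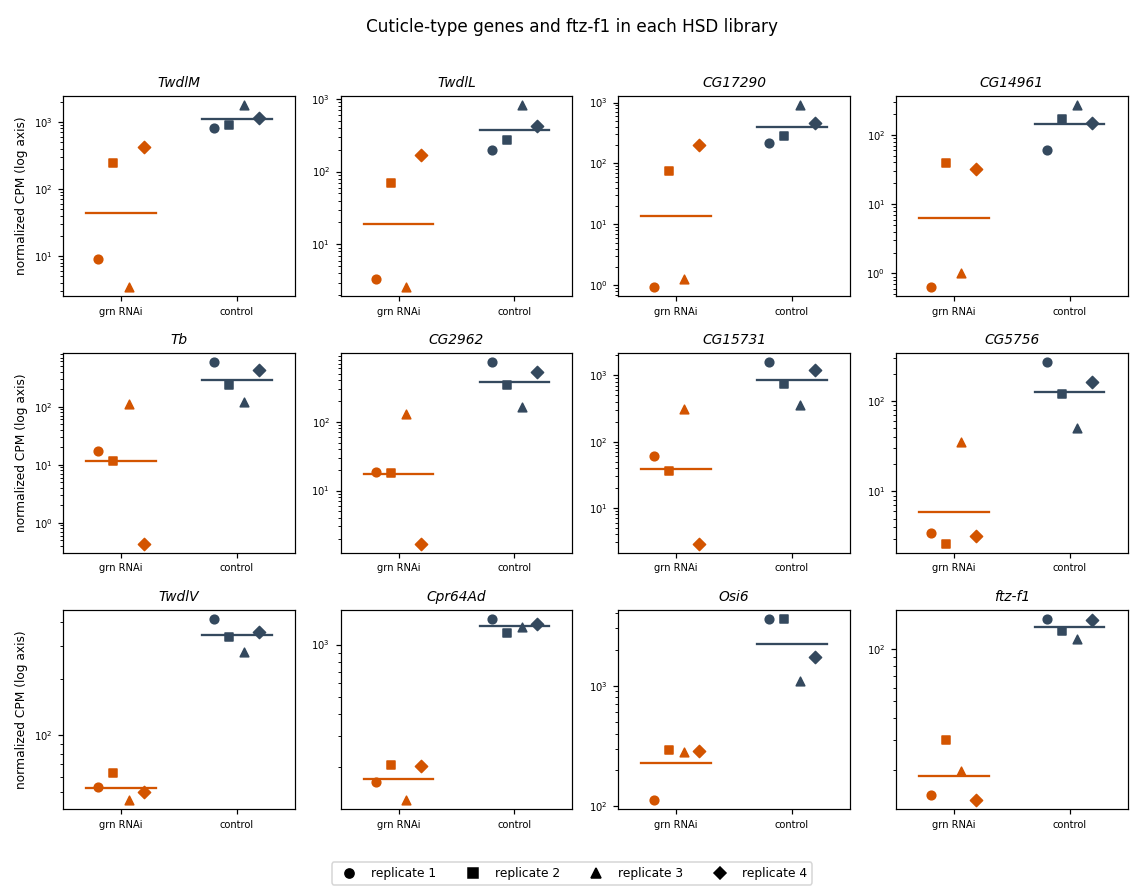
Normalized CPM (vertical log axis) in each of the 4 HSD libraries labelled grn RNAi (left) and the 4 HSD control libraries (right) for 12 genes, with a symbol shape for each replicate and the mean of the log2 values as a line. The top row is high in replicates 2 and 4 of the libraries labelled grn RNAi, the middle row in replicate 3, and TwdlV and Cpr64Ad in the bottom row have tight groups that do not overlap.

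Some of the lowered genes neighboured each other on the chromosomes. Taking genes called lower with a log2 fold change of at most -2 that neighbour each other among the genes tested, 16 runs of 3 or more held 63 genes. The longest, on 3L from 19464049 to 19476423 (Release 6), held 7 genes around CG14095 with a median of -3.13. The 6 Osiris genes Osi24, Osi2, Osi5, Osi6, Osi7 and Osi9 followed each other on 3R from 6198811 to 6262105 (median -2.89), and Osi17 to Osi20 formed another run of 4 (median -2.84). The Ccp84A cuticle cluster gave 5 neighbours, Ccp84Ac to Ccp84Ag (median -2.87), and TwdlH, TwdlR, TwdlS and TwdlD 4 (median -4.05). This rule and the genes in the runs were chosen after the values were seen. Genes in such clusters often resemble each other in sequence, so that the counts of each are uncertain.

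The cuticle proteins called higher were few. Cpr65Ay and Cpr47Eb, named here after their values were seen, had means of 24.2 ± 3.12 and 490.3 ± 259 normalized CPM in libraries labelled grn RNAi, against 7.89 ± 2.07 and 196 ± 19.3 in controls (SD, n = 4 each). Cpr65Ay was higher in every library (log2 fold change 1.59, limma adjusted p = 1.6e-05). Cpr47Eb overlapped, since replicate 4 labelled grn RNAi had 187 normalized CPM, and its fold change of 1.14 (limma adjusted p = 0.013) missed the threshold with the 8 HSD libraries fitted alone (adjusted p = 0.053).

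Genes that make and modify chitin were mixed. Of the 45 chitin and peritrophic matrix genes, 23 were lower and 8 higher, with a median of -0.29, and with quantile normalization 19 were lower and 12 higher. The shares among all genes were 21.2% lower and 17.9% higher, and with quantile normalization 1441 and 3923 of 9950. The chitinase Cht7 had 62.8, 91.6, 97.2 and 87.8 normalized CPM in the libraries labelled grn RNAi, against 539, 499, 444 and 479 in controls (log2 fold change -2.54 ± 0.12, limma adjusted p = 2.1e-09). The chitin deacetylases serpentine (serp) and vermiform (verm) were both lower by -1.86 ± 0.13, Cda5, of the same family, by -1.95 ± 0.12, and the chitin-binding tracheal protein gene Gasp by -2.20 ± 0.37. krotzkopf verkehrt (kkv), the chitin synthase of the epidermis, was lower by -1.67 ± 0.16 and is named after its values were seen. Higher members were Muc26B, a mucin (1.08 ± 0.07, 758 normalized CPM against 359 in controls), and the chitinase Cht3 (0.96 ± 0.18). Of the 19 tyrosine, sclerotization and melanin genes, among which is y, 9 were lower and 3 higher. yellow-b was lower by -1.24 ± 0.15 and yellow-e by -1.34 ± 0.15, whereas Henna (Hn), the phenylalanine hydroxylase that makes tyrosine, was higher by 0.63 ± 0.07 on the log2 scale.

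The hormone genes that time moults moved in both directions. Of the 20 ecdysone-responsive genes, 9 were lower and 4 higher, with a median of -0.34, beside 21.2% and 17.9% of all genes. The nuclear receptor gene ftz-f1, which acts after the ecdysone pulse has fallen, had 14.5, 30.1, 19.8 and 13.4 normalized CPM in the libraries labelled grn RNAi, against 149, 127, 114 and 148 in controls (log2 fold change -2.82 ± 0.32, limma adjusted p = 8.9e-06). All 4 control libraries, replicate 3 included, lay far above the libraries labelled grn RNAi. Eip74EF, an early ecdysone-induced transcription factor gene, was lower by -2.78 ± 0.39 and the ecdysone receptor gene EcR, named after its values were seen, by -0.69 ± 0.13. ImpE3 was higher by 1.29 ± 0.16 and Eip55E by 0.33 ± 0.04. The same counts of 9 and 4 were found with quantile normalization and with plain CPM.

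Of the 8 genes of ecdysone synthesis and turnover, 4 were higher and 3 lower. shade (shd), which converts ecdysone to its active form, had 25.3, 20.9, 19.6 and 25.1 normalized CPM in the libraries labelled grn RNAi, against 5.19, 5.2, 11.1 and 8.58 in controls (1.59 ± 0.24, limma adjusted p = 1e-04). Cyp18a1, which inactivates the hormone, had 9.71, 18.9, 10.4 and 5.78 normalized CPM, against 59.1, 71.6, 61.4 and 63.2 in controls (-2.57 ± 0.35, limma adjusted p = 4.8e-05). Neither gene's groups overlapped. phantom (phm), an earlier step in synthesis, was higher by 0.64 ± 0.09, and the sterol carrier Npc1a was lower by -0.49 ± 0.08. In the juvenile hormone pathway 5 of 11 genes were lower and 2 higher, against 2 and 3 after quantile normalization and 3 each way with plain CPM. Among all genes 21.2% were lower and 17.9% higher, and with quantile normalization 1441 and 3923 of 9950. Jheh3, which degrades the hormone, was lower by -0.87 ± 0.06. Kr-h1, a target of juvenile hormone, was higher by 0.63 ± 0.11 at only 5.66 normalized CPM, against 3.48 in controls.

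Genes for secreted digestive proteases were lower. Of the 28 trypsins and Jonah proteases, which are serine proteases of the midgut, 22 were lower and 0 higher, with a median log2 fold change of -0.52, and with quantile normalization 18 were lower and 2 higher. Their summed level was 11086 to 11584 normalized CPM in the libraries labelled grn RNAi and 17680 to 19064 in controls. In contrast to the cuticle genes, the replicates lay close together (median SD of log2 values 0.06 and 0.12). Jon74E had 73.7, 89.8, 71.2 and 92.9 normalized CPM in the libraries labelled grn RNAi, against 595, 642, 548 and 556 in controls (log2 fold change -2.84 ± 0.12, limma adjusted p = 4e-10). Jon25Bi had 295, 352, 328 and 379.7 normalized CPM in the libraries labelled grn RNAi, against 1843, 1498, 1689 and 1652 in controls (-2.30 ± 0.09, limma adjusted p = 1.3e-10). The groups were well apart in both. Jon25Bii was lower by -2.28 ± 0.08, but is a close copy of Jon25Bi, so that the counts of each are uncertain. betaTry was lower by -1.25 ± 0.08. Jon65Aii was near the threshold (-0.27, limma adjusted p = 0.037) and missed it with quantile normalization (-0.07) and when any 1 of the 8 HSD libraries except control replicate 4 was left out.

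All 5 lysozyme genes, whose products digest bacterial cell walls in the midgut, were lower, with a median of -1.34. LysS had 20.1, 19, 17.2 and 30.2 normalized CPM in the libraries labelled grn RNAi, against 441, 516, 480 and 461 in controls (-4.45 ± 0.14, limma adjusted p = 1.3e-11), one of the tightest large differences in the data. LysB was lower by -1.87, LysE by -1.34, LysD by -1.18 and LysC by -0.85 on the log2 scale. LysB to LysE are close copies, so that the counts of each are uncertain, and LysC is named after its values were seen.

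Maltases and LMan genes, which encode sugar-cleaving enzymes, were lower too, beside 21.2% of all genes lower. Of the 10 maltases, which cut maltose and sucrose in the gut, 7 were lower and 0 higher (median -0.52), with 6 lower and 2 higher after quantile normalization. Mal-A3 had 10.6, 14.9, 11.8 and 9.69 normalized CPM in the libraries labelled grn RNAi, against 56.9, 47.4, 55.9 and 52.8 in controls (-2.15 ± 0.15, limma adjusted p = 9.3e-08). Mal-A6 was lower by -1.47 ± 0.09, with 197, 249, 191 and 196 normalized CPM in the libraries labelled grn RNAi, against 627, 580.5, 547 and 538 in controls. Mal-A1 (-0.53) and Mal-A8 (-0.52) were lower by less, and Mal-A7 (-0.42, limma adjusted p = 0.011) overlapped between the groups and missed the threshold with plain CPM (-0.28, adjusted p = 0.051). Among the 9 amylases and alpha-mannosidases 6 were lower and 0 higher (5 and 1 after quantile normalization). The lower genes included 5 of the 6 LMan genes, which are named as lysosomal alpha-mannosidases. The highest fold change in the list was 0.83, which was not called, and DESeq2 called 1 member higher. No single amylase gene is named in the text. LManVI had 31, 43.3, 42.9 and 24.5 normalized CPM in the libraries labelled grn RNAi, against 260.2, 202, 267 and 227 in controls (-2.77 ± 0.20, limma adjusted p = 1.4e-07). LManV was lower by -2.11 ± 0.13, LManIII by -2.45 ± 0.21 and LManIV by -1.59 ± 0.17, the last at under 4 normalized CPM in every HSD library.

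**Figure D3:**
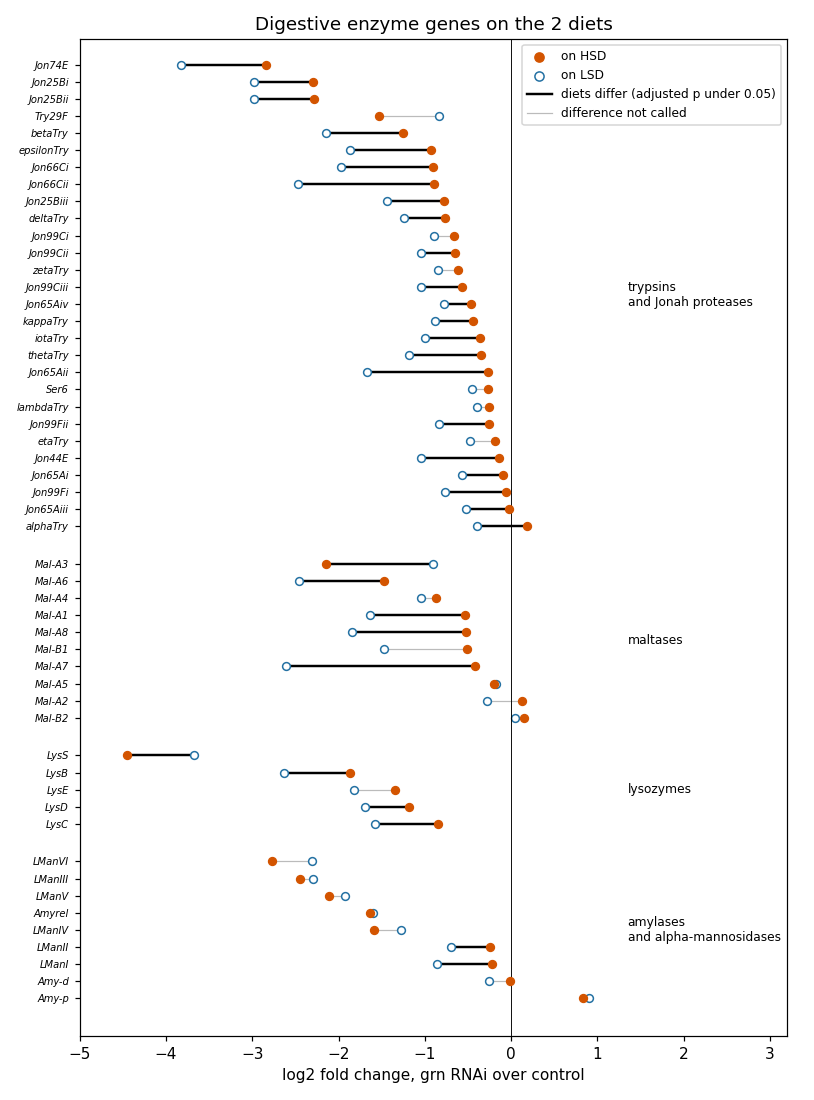
Log2 fold change of labelled grn RNAi over control (horizontal axis) on HSD (filled) and LSD (open) for each tested trypsin, Jonah protease, maltase, lysozyme, amylase and alpha-mannosidase gene, joined by a thick line where the difference between the diets was called. Most open symbols lie further to the left, with proteases at a median of -0.52 on HSD and -1.02 on LSD, while Mal-A3 and LysS are further left on HSD.

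Lipases were split. Of 15 midgut and related lipase genes, 6 were lower and 4 higher, and 4 each way after quantile normalization. Of all genes 21.2% were lower and 17.9% higher, and with quantile normalization 1441 and 3923 of 9950. magro (mag), a secreted lipase and sterol esterase of the gut, had 19.8, 20.8, 19.9 and 24.8 normalized CPM in the libraries labelled grn RNAi, against 86.9, 86.3, 114 and 114 in controls (-2.20 ± 0.16, limma adjusted p = 1.4e-07). CG17292 was lower by -0.60 ± 0.06. CG17191 had 38.4, 36.3, 39.9 and 38.8 normalized CPM in the libraries labelled grn RNAi, against 12.7, 17.1, 14.9 and 15.3 in controls (1.33 ± 0.08, limma adjusted p = 3.8e-08), and CG6295 was higher by 0.87 ± 0.11. Among 18 lipoprotein, sterol and lipid droplet genes 9 were lower and 1 higher, and 6 and 4 after quantile normalization. ninaD, a scavenger receptor for carotenoids, was lower by -1.98 ± 0.19 and Npc2f by -0.79 ± 0.07, while Rfabg, the apolipophorin precursor, was near the threshold (-0.27, limma adjusted p = 0.031) and missed it after quantile normalization (-0.15) and without any 1 of control replicate 3 and grn RNAi replicates 3 and 4 (-0.27 to -0.20).

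The enzymes of sugar breakdown and fatty acid synthesis, which the study examined as responders to sugar, differed little on HSD. Of the 13 genes that its text names from these data, 3 were lower and 10 were not called. The study chose these genes on these samples. It reports most of them as lower mainly on LSD, Pgi and Aldh-III as lower on both diets, and sug as unaffected. On LSD, 8 of the 8 de novo lipogenesis genes and 7 of the 13 glycolysis genes were lower here, beside 27.1% of all genes. Their medians there were -0.42 and -0.16. Pgi, which opens glycolysis after hexokinase, had 950.3, 962, 900.2 and 875 normalized CPM in the libraries labelled grn RNAi, against 1163, 1085, 1097 and 1071 in controls (-0.26 ± 0.05, limma adjusted p = 0.0011). ATPCL, which makes cytosolic acetyl-CoA, had 1606, 1531, 1453 and 1455 normalized CPM, against 1991, 1878, 1790 and 1816 in controls (-0.31 ± 0.06, limma adjusted p = 0.0013), and missed the threshold with plain CPM (-0.16, adjusted p = 0.071). Aldh-III was lower by -0.46 ± 0.08 (limma adjusted p = 0.00044). In these 3 genes the groups did not overlap, and the exact permutation test of each gave a two-sided p of 0.029, the smallest that 4 against 4 allow.

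The other 10 had fold changes from -0.16 to 0.06. Hex-A (-0.12 ± 0.05, limma adjusted p = 0.069) and AcCoAS (-0.14 ± 0.07, limma adjusted p = 0.11) did not overlap between the groups and gave 0.029 in the exact permutation test, but were not called. Hex-A turned to 0.12 with quantile normalization and 0.03 with plain CPM, and passed the threshold without grn RNAi replicate 4 (-0.14, limma adjusted p = 0.047). AcCoAS passed it when the HSD libraries were fitted alone (adjusted p = 0.023). FASN1, the fatty acid synthase, had 6949, 6072, 6218 and 6972 normalized CPM in the libraries labelled grn RNAi, against 6262, 6357, 6674 and 6423 in controls, with a fold change of 0.03 ± 0.09. ACC (0.03 ± 0.08), PyK (0.06 ± 0.05), Gapdh1 (-0.04 ± 0.06) and Gapdh2 (0.06 ± 0.06) overlapped as well, and PyK (0.09 with quantile normalization, 0.21 with plain CPM) and Gapdh2 (0.20 with plain CPM) were called higher under those scalings. The sugar-responsive transcription factor genes cbt (-0.16 ± 0.07), sug (-0.11 ± 0.09) and Smox (-0.05 ± 0.05) were not called, and all of them turned positive with quantile normalization, at 0.04, 0.09 and 0.14. Smox was then called higher (limma adjusted p = 0.033). cbt was called without control replicate 4 (-0.21, limma adjusted p = 0.02).

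Counts for the pathways were small with the authors' scaling and moved with it. They stand beside 17.9% of all genes higher and 21.2% lower, and 3923 and 1441 of 9950 with quantile normalization. Of the 13 glycolysis genes 1 was higher and 1 lower, and with quantile normalization 6 and 1. Of the 17 TCA cycle genes 2 were higher and 2 lower, and with quantile normalization 14 and 0. Of the 8 genes of de novo lipogenesis 2 were lower and 0 higher, and 1 was lower with quantile normalization. In galactose use and glycogen metabolism, Galt had 64.1, 66.5, 64.8 and 65.1 normalized CPM in the libraries labelled grn RNAi, against 99.5, 106, 95.6 and 97.8 in controls (-0.61 ± 0.05, limma adjusted p = 4.3e-07). UGP, which makes UDP-glucose, was higher by 0.20 ± 0.04. fbp, the fructose bisphosphatase of gluconeogenesis (-0.28), and trehalase (Treh, -0.23) were called lower but fell to -0.03 and -0.01 with quantile normalization. CG10924, a phosphoenolpyruvate carboxykinase gene, was higher, with 50.8, 48.4, 53.1 and 46.8 normalized CPM, against 35.3, 31.1, 34.4 and 29 in controls (0.61 ± 0.14, limma adjusted p = 0.0036).

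whithered (whd), the carnitine palmitoyltransferase that admits fatty acids to mitochondria, had 46.5, 54.2, 53.1 and 46.9 normalized CPM in the libraries labelled grn RNAi, against 119.6, 98.7, 96.3 and 109 in controls (-1.07 ± 0.10, limma adjusted p = 1.8e-06). Acox57D-p, a peroxisomal acyl-CoA oxidase, was lower by -0.99 ± 0.06, with 19.4 to 21.6 normalized CPM against 38.9 to 42.6 in controls. CG12262, an acyl-CoA dehydrogenase, was lower by -0.84 ± 0.12, whereas CG3902, another one, was higher by 0.33 ± 0.05. Of the 18 lipolysis and fatty acid oxidation genes, 7 were lower and 1 higher, but 4 were lower and 8 higher with quantile normalization and 5 each way with plain CPM, so that the direction of the group as a whole depended on the scaling. Among 16 fatty acid elongases, which build very long chains, 10 were lower and 2 higher (median -0.64), with 7 and 4 after quantile normalization. CG31522 (-1.28 ± 0.17) and CG31523 (-1.04 ± 0.14) were the most abundant of those named. In triacylglycerol synthesis 5 of 14 were lower and 3 higher, with 1 lower and 6 higher after quantile normalization. The acyltransferases CG1941 (0.75 ± 0.08) and CG1946 (1.06 ± 0.15) were the higher ones named. The counts of these lists stand beside 21.2% of all genes lower and 17.9% higher, and 1441 and 3923 of 9950 with quantile normalization.

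Detoxification genes were lower for the cytochrome P450 family and mixed for the others. Of the 69 P450 genes, 41 were lower and 8 higher (median -0.41), with 36 lower and 13 higher after quantile normalization and 5 higher without grn RNAi replicate 2. Cyp28d2 had 21.5, 16.9, 21 and 26 normalized CPM in the libraries labelled grn RNAi, against 122, 169, 161 and 133 in controls (-2.75 ± 0.12, limma adjusted p = 5.4e-10). Cyp4p2 was lower by -2.20 ± 0.07 and Cyp4e2 by -0.88 ± 0.05. Cyp12d1-d was at 1 read in replicate 1 labelled grn RNAi (0.0337 normalized CPM) and at 0 in the other 3, against 2.17, 2.06, 2.14 and 2.45 normalized CPM in controls. Cyp12d1-p, a near-identical copy named after its values were seen, was at 2.97, 3.58, 2.74 and 3.12 normalized CPM in the libraries labelled grn RNAi, against 3.21, 3.72, 3.98 and 4.01 in controls and was not called. The counts of each of these copies are uncertain. Cyp313a3, also named afterwards, was the P450 gene with the largest fold change among the higher ones (2.46 ± 0.26), at 3.91 to 9.38 normalized CPM against 0.544 to 0.929 in controls.

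Glutathione S-transferases differed by class. Of the 10 GstD genes, 8 were higher and 0 lower (median 0.38), and of the 12 GstE genes, 7 were lower and 1 higher (median -0.27), out of 12 higher and 9 lower among all 32 transferases, or 16 and 5 after quantile normalization. This split was noted after the values were seen, and the difference between the classes was not tested. GstD8 had 40.2, 37.4, 31.6 and 33.7 normalized CPM in the libraries labelled grn RNAi, against 15.6, 15.3, 12.6 and 16 in controls (1.23 ± 0.09, limma adjusted p = 1.7e-07), and GstD5 was higher by 1.28 ± 0.21. GstE6 was lower by -0.90 ± 0.10 and GstE8 by -0.82 ± 0.08, whereas GstZ2 was higher by 0.77 ± 0.06. Of the 32 UDP-glycosyltransferases, 18 were lower and 8 higher, and 17 and 8 after quantile normalization. The shares among all genes were 21.2% lower and 17.9% higher, and with quantile normalization 1441 and 3923 of 9950. CG10178 (-1.27 ± 0.11) and Ugt58Fa (-0.81 ± 0.06) were lower, and Ugt86Dg (0.74 ± 0.09) and CG4302 (0.47 ± 0.05) higher. Catalase (Cat), which breaks down hydrogen peroxide, was lower at 107 to 114 normalized CPM against 177 to 207 in controls (-0.78 ± 0.06, limma adjusted p = 3.9e-07), and Gclm, a subunit of the enzyme that starts glutathione synthesis, by -0.52 ± 0.05.

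Of the 32 DNA replication and cell cycle genes, 16 were higher, 1 lower and 15 not called (median 0.20), beside 17.9% of all genes higher. After quantile normalization 25 of the 32 were higher, beside 3923 of all 9950 genes and a median of 0.13 over all genes. PCNA, the sliding clamp of DNA polymerase, had 54.1, 58.1, 57.7 and 57.6 normalized CPM in the libraries labelled grn RNAi, against 46.4, 44.2, 45.9 and 43.2 in controls (0.34 ± 0.05, limma adjusted p = 0.00016). RnrL, of ribonucleotide reductase, was higher by 0.37 ± 0.04, and the replication genes Mcm10 and Mcm7 by 0.43 ± 0.07 and 0.33 ± 0.06. Of the 25 heat shock protein and chaperonin genes, 8 were higher, among them Cctgamma (0.33 ± 0.04) and Cct5 (0.26 ± 0.04), and 3 lower (median 0.08). Among all genes 17.9% were higher and 21.2% lower.

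For translation and mitochondria the count depended on the scaling and on single libraries. Of all 9950 genes tested, 17.9% were higher and 21.2% lower with the authors' scaling. With quantile normalization 3923 of them were higher and 1441 lower, and with plain CPM 4209 and 1392. Of 24 ribosome biogenesis genes, 14 were higher and 1 lower (median 0.24), including the snoRNP genes nop5 (0.37 ± 0.09) and hoip (0.39 ± 0.09). This count was 6 without grn RNAi replicate 4, 20 without control replicate 3 and 23 with quantile normalization. Of 73 cytosolic ribosomal protein genes, 13 were higher, near the share among all genes, and 0 lower, with RpL13A at 0.24 ± 0.06. Without control replicate 4, 2 were higher, and without grn RNAi replicate 4 and control replicate 3 together, 1 was higher. With quantile normalization 55 were higher, and with plain CPM 69. Of 72 mitochondrial ribosomal protein genes, 19 were higher, among them mRpL54 (0.42 ± 0.07), 6 without grn RNAi replicate 4, with or without control replicate 3, and 62 with quantile normalization. Of 32 aminoacyl-tRNA synthetase genes, 10 were higher and 1 lower, with AspRS-m higher by 0.29 ± 0.04, and 26 were higher after quantile normalization. The 68 nuclear genes of the respiratory chain held 0 higher and 5 lower, 3 lower without control replicate 3, with or without grn RNAi replicate 4, but 52 higher and 2 lower with quantile normalization, and the 34 proteasome genes held no call, but 29 higher with quantile normalization. Of the 12 mitochondrially encoded genes, 5 were lower, 3 without control replicate 2, 8 without control replicate 4 and 2 without grn RNAi replicate 4 and control replicate 3. Of the 20 autophagy genes, 8 were lower, 4 without control replicate 3, with or without grn RNAi replicate 4, and with quantile normalization 1 was lower and 2 higher.

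The genes with the largest rise formed no list of one function. CG10081 (2R:19385923-19389318, Release 6) had 193, 147, 152 and 178 normalized CPM in the libraries labelled grn RNAi, against 8.79, 9.47, 7.7 and 9.47 in controls (4.16 ± 0.19, limma adjusted p = 1.2e-09). Nplp4, a neuropeptide-like precursor, had 399, 294, 269.9 and 357 normalized CPM, against 70.2, 62.2, 59.5 and 101 in controls (2.18 ± 0.19, limma adjusted p = 8e-07). Obp56a, an odorant-binding protein gene, had 2288, 2435, 2701 and 2284 normalized CPM, against 843, 958, 532 and 838 in controls (1.64 ± 0.19, limma adjusted p = 9.7e-06). No group overlapped in these genes. Among genes of low level with large fold changes, CG17974 (2.64 ± 0.30), CG8012 (2.53 ± 0.17), CG9040 (2.42 ± 0.32), CG32071 (2.42 ± 0.25), CG9698 (2.28 ± 0.33), CG15905 (2.26 ± 0.27), CG9759 (2.21 ± 0.17), CG13640 (2.19 ± 0.29), CG42815 (2.13 ± 0.27), CG31371 (2.04 ± 0.27) and CG12522 (2.02 ± 0.33) had means of 10 to 44.5 normalized CPM in the libraries labelled grn RNAi, against 1.61 to 9.45 in controls. lectin-24A, a C-type lectin gene, was higher by 2.06 ± 0.31, with replicate 2 labelled grn RNAi (68.9 normalized CPM) above the other 3 (29.7 to 31.4).

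Abundant genes that rose were mostly known by number. CG11350 had 1705, 1696, 1643 and 1621 normalized CPM in the libraries labelled grn RNAi, against 489, 421, 671 and 781 in controls (1.54 ± 0.21, limma adjusted p = 4.3e-05). CG32603 (1366 ± 194 against 467 ± 69.2 normalized CPM in controls, SD), CG7465 (1677 ± 295 against 700 ± 121), CG12480 (573 ± 98.9 against 170.4 ± 35.7), CG30457 (755 ± 54.3 against 265 ± 87.4) and CG7299 (2550 ± 412 against 1588 ± 259.6) were higher without overlap. CG16885 and CG16884 had nearly the same values, with means of 1217 and 1207 normalized CPM against 640.3 and 662 in controls, and are close copies whose counts are uncertain. Runs of neighbours were rare among the higher genes. By the same rule with a log2 fold change of at least 1, 3 runs held 9 genes, of which CG32071, CG32073 and CG12522 lay side by side on 3L from 11103421 to 11108732, and CG7465 and CG11350 shared a run with CG13722.

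**Figure D4:**
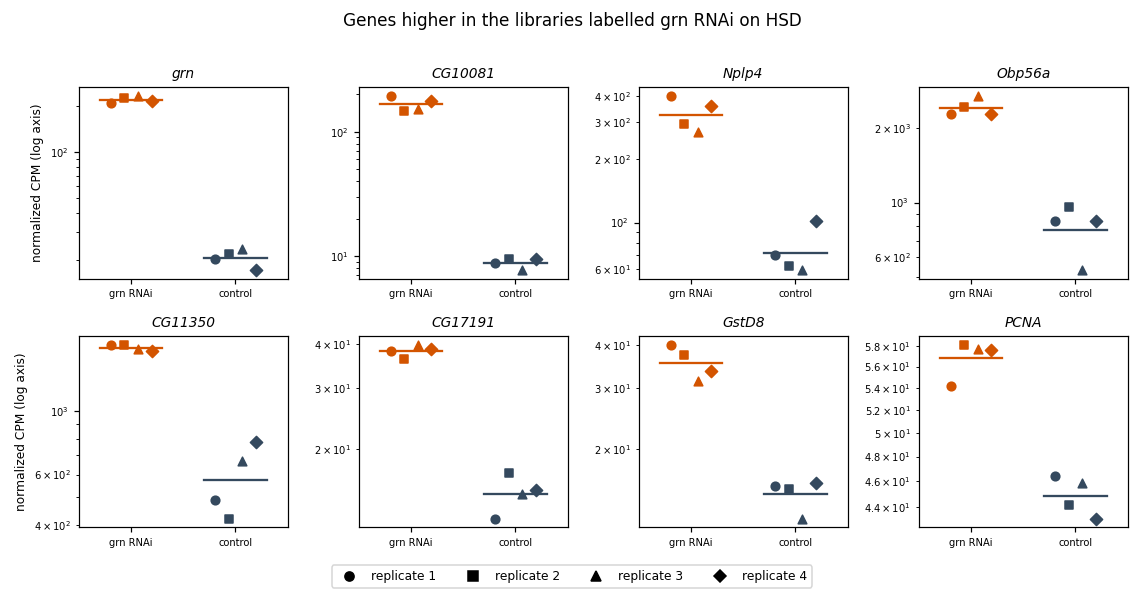
Normalized CPM (vertical log axes, each panel with its own range) in the 4 HSD libraries labelled grn RNAi (left) and the 4 HSD control libraries (right) for 8 genes that were higher, with a symbol shape for each replicate and the mean of the log2 values as a line. The groups do not overlap in any panel, from grn with a log2 fold change of 3.39 to PCNA with 0.34.

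On LSD, where the libraries labelled grn RNAi and the controls are separate larvae from those on HSD, 5391 genes were called (54.2%), 2699 higher (27.1%) and 2692 lower (27.1%). Of the genes higher on HSD, 1407 were also higher on LSD, 78.8% of the HSD list and 52.1% of the LSD list, and 20 were lower there. Of the genes lower on HSD, 1724 were also lower on LSD, 81.7% of the HSD list and 64.0% of the LSD list, and 10 were higher there. The effect itself differed between the diets for 532 genes (5.35%), 370 with a more positive value on HSD (3.72%) and 162 with a more negative one (1.63%). The balance turned round with plain CPM, at 244 and 281, and DESeq2 called 685 and 326. The limma counts were 563 and 454 without control HSD replicate 3, the first fell to 249 without grn RNAi HSD replicate 1, and the second was 76 to 105 without any 1 of the 4 LSD libraries labelled grn RNAi, grn RNAi HSD replicates 1 and 4 or control HSD replicate 2. Of the genes called lower on HSD, 146 had a more positive fold change on HSD than on LSD and 41 a more negative one.

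The proteases differed by diet in most members. For 22 of the 28 trypsins and Jonah proteases the fold change was more positive on HSD than on LSD, and for 0 more negative, with medians of -0.52 and -1.02. Jon66Cii was lower by -0.89 on HSD and -2.47 on LSD (difference 1.59 ± 0.23, limma adjusted p = 0.0016), Jon65Aii by -0.27 and -1.67 (1.39 ± 0.14), Jon74E by -2.84 and -3.83 (0.99 ± 0.17) and betaTry by -1.25 and -2.14 (0.89 ± 0.12). Jon25Bi and Jon25Bii differed by 0.68 and 0.70. Of the 10 maltases, 4 had a more positive and 1 a more negative fold change on HSD, and of the 9 amylases and alpha-mannosidases 2 a more positive one, where the medians were -1.59 on HSD and -1.28 on LSD. Mal-A7 was lower by -0.42 on HSD and -2.61 on LSD (2.19 ± 0.17, limma adjusted p = 7e-06), and Mal-A8 (1.32), Mal-A1 (1.09) and Mal-A6 (0.99) differed in the same direction. Mal-A3 and LysS went the other way, with differences of -1.24 ± 0.21 and -0.78 ± 0.19, while LysB (0.76), LysC (0.73) and LysD (0.51) were less low on HSD. None of the 42 Tweedle and Osiris genes was called for the difference, where TwdlM for example had a standard error of 1.83, and their medians were -3.03 on HSD and -3.08 on LSD.

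Among the genes named here the largest difference was that of CG10924, which was higher by 0.61 on HSD and lower by -1.94 on LSD (difference 2.55 ± 0.20, limma adjusted p = 9.4e-06). Its mean was 49.8 normalized CPM in the HSD libraries labelled grn RNAi and 32.4 in HSD controls, and 26.6 in the LSD libraries labelled grn RNAi and 104 in LSD controls. Cht9, a chitinase gene, was higher by 0.26 on HSD, not passing the threshold without grn RNAi replicate 3 (0.21, limma adjusted p = 0.054), and lower by -1.33 on LSD (difference 1.59 ± 0.11). CG9757 (1.97), CG32444 (1.32), CG6295 (1.04) and CG17191 (0.89) were also more positive on HSD. In the other direction, CG5150 was lower by -1.01 on HSD and higher by 0.52 on LSD (difference -1.53 ± 0.20, limma adjusted p = 0.00071). GstD5 (-1.35), CG32073 (-1.19), tenectin (tnc, -1.17), CG6996 (-1.14), CG11529 (-1.06) and Cyp4d14 (-1.03) followed. For the enzyme genes Hex-A, Treh, fbp, Aldh-III and AcCoAS the difference was 0.26, 0.36, 0.42, 0.47 and 0.51. Each of them was closer to the control on HSD than on LSD. Smaller differences were called for Jheh3 (0.32), CCHa2 (0.37), phm (0.50), PCNA (-0.30), Kr-h1 (-0.63) and v (-0.51).

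Marker genes of larval tissues were measured with the rest, and their counts stand beside 17.9% of all genes higher and 21.2% lower. Of 16 midgut markers, several of which are the enzymes above, 9 were lower and 1 higher, or 7 and 4 with quantile normalization. Their summed levels were 2903 to 3122 normalized CPM in the libraries labelled grn RNAi and 4147 to 4609 in controls. GATAe, the GATA factor of the endoderm, had 33.9, 31.9, 31 and 33.3 normalized CPM, against 44.2, 43.7, 45.4 and 39.1 in controls (-0.40 ± 0.06, limma adjusted p = 0.00016). Outside these markers, of 11 enteroendocrine peptide genes 1 was lower, 1 higher and 9 not called, with a median of 0.08. With quantile normalization 1 was lower and 3 higher, and with plain CPM 1 and 7. The lower one was CCHa2, a nutrient-dependent peptide hormone (-0.90 ± 0.06), at 47.9 to 54.7 normalized CPM against 92 to 99.8 in controls. Of 7 tracheal markers 4 were lower (1115 to 1403 against 3280 to 5232 in controls), of which Gasp, serp and verm also stand in the chitin list. With quantile normalization, and also with plain CPM, 3 tracheal markers were lower and 2 higher. Fat body markers summed to 5208 to 5688 against 6070 to 7591 in controls, with 4 of 9 lower, 1 without control replicate 3, with or without grn RNAi replicate 4, and 1 with quantile normalization. Muscle markers were level (59343 to 63950 against 59780 to 65469 in controls), with 2 of 20 lower. Of 18 neuron markers, 8 were higher, 5 without grn RNAi replicate 4 and control replicate 3, and 1 lower (883 to 949.5 against 852.8 to 896.7 in controls), with nSyb, of the synaptic vesicle, at 0.29 ± 0.05, the GABA receptor gene Rdl at 0.40 ± 0.10 and unc-13 at -0.40 ± 0.07. Malpighian tubule markers had 2 of 8 higher, glia 1 of 6 each way (nrv2 at 0.36 ± 0.04), and salivary gland and germline markers had no call. How far tissue makeup contributed to the gene groups above was not tested.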

How the data were processed

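Libraries were strand-specific RNA-seq of whole larvae, 4 in each of 4 groups. According to the methods and the submitters' processing notes, reads were trimmed with Trimmomatic, aligned with TopHat2 2.1.0 to FlyBase release R6.10, counted per gene with HTSeq and analysed with limma. The deposited table holds a signal, normalized CPM after the authors' scaling and their filter on low values. Every value was a whole multiple of 1 value per library within 0.01 of a read, so the reads were recovered (100% of values).

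A gene was kept where 3 or 4 libraries of any group exceeded 1 normalized CPM. limma 3.58.1 (R 4.3.3), moderated with a trend, was fitted to log2(normalized CPM + 0.5) over all 16 libraries with 4 group means, and p-values were adjusted by Benjamini-Hochberg over 9950 genes at a threshold of 0.05. Single genes were also compared by an exact permutation test, two-sided. Gene lists were described by counts and medians without a test. The members and lists were chosen with earlier results of these data known. The scripts were tested on simulated data.

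Named genes were grn, the 15 called genes each way with the largest fold change, a mean of at least 10 and no overlap, the 10 each way with the largest difference in level, the 8 each way with the largest difference between the diets, up to 4 genes of each list with the lowest adjusted p, and 13 genes named by the study. Some genes that this rule names are not reported here. Alternatives were pseudocounts of 0.1 and 1, no filter or a filter at 5, no trend, 3 scalings, the 8 libraries alone, a replicate block, edgeR 4.0.16, DESeq2 1.42.0 and limma voom applied to the recovered reads, and the omission of single libraries. Leaving out 2 libraries together was added after seeing the data. Gene symbols were found for 9844 of 9982 identifiers.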

Additional observations from a re-analysis of the deposited data

Results flagged for a closer look

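In these genes 1 of the 4 libraries of a group stood apart from the other 3 by more than Dixon's test allows, which happens by chance in about 1 group in 20. All 178 genes named were examined in both HSD groups. With that many groups, flags such as these are expected by chance, and none was tested further. In the libraries labelled grn RNAi on HSD, replicate 3 was high for Tb (112.1 normalized CPM), CG2962 (129.1) and CG5756 (35.54). Replicate 2 was high for Cpr67Fb (43.1), TwdlD (27.33), Mal-A6 (249.1), Mal-A7 (41.9), lectin-24A (68.88) and v (19.2). Replicate 4 was high for Lcp9 (4.932) and CG30457 (835.3) and low for CG5150 (45.94). Replicate 1 was low for Osi6 (111.3) and PCNA (54.13), and high for Dro (7.184) and, by a single read, for Cyp12d1-d (0.03373). Among the controls on HSD, replicate 2 was high for CCHa2 (99.78) and replicate 1 for v (37.72).

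For these genes the log2 fold change of labelled grn RNAi over control differed between HSD and LSD by the interaction test in limma, and the value given is HSD minus LSD. It was positive for CG10924 (2.55), Mal-A7 (2.19), CG9757 (1.97), Cht9 (1.59), Jon66Cii (1.59), Jon65Aii (1.39), Mal-A8 (1.32), CG32444 (1.32), Mal-A1 (1.09), CG6295 (1.04), Jon74E (0.99), Mal-A6 (0.99), betaTry (0.89), CG17191 (0.89), LysB (0.76), LysC (0.73), Jon25Bii (0.70), Jon25Bi (0.68), LysD (0.51), AcCoAS (0.51), phm (0.50), Aldh-III (0.47), fbp (0.42), CCHa2 (0.37), Treh (0.36), Jheh3 (0.32) and Hex-A (0.26). It was negative for CG5150 (-1.53), GstD5 (-1.35), Mal-A3 (-1.24), CG32073 (-1.19), tnc (-1.17), CG6996 (-1.14), CG11529 (-1.06), Cyp4d14 (-1.03), LysS (-0.78), Kr-h1 (-0.63), v (-0.51) and PCNA (-0.30).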

How the results depend on the processing

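Of 3911 values for the 178 genes named, each under 1 alternative, 3853 kept their direction and their side of the threshold. With the sign unchanged, 41 were no longer called (15 genes) and 6 became called (5 genes). The other 11 turned in sign (6 genes), among them Smox with quantile normalization, which was then called. With quantile normalization 3923 genes were higher on HSD and 4102 on LSD. With plain CPM 4209 genes were higher and 1392 lower on HSD, 5368 and 1598 on LSD, and 244 and 281 for the difference between the diets. DESeq2 called 685 and 326 for the difference. With a log2 fold change of at least 0.5 in size, 336 genes were higher and 1047 lower on HSD. Leaving out each library in turn gave 1460 to 1698 higher and 1842 to 2007 lower genes on HSD, 2366 to 2604 and 2450 to 2633 on LSD, and 249 to 563 and 76 to 454 for the difference.

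The genes that turned in sign were not called on HSD. Hex-A was 0.12 with quantile normalization and 0.03 with plain CPM, cbt 0.04 with quantile normalization, Smox 0.14 (then called, limma adjusted p = 0.033) and 0.09, and sug 0.09 and 0.04. Gapdh1 was 0.10 with plain CPM and -0.08 to 0.00 with a library left out, and FASN1 was -0.01 to 0.06 with a library left out. The cause was not tested.

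Replicate numbers did not pair the libraries, since deviations of same-numbered HSD libraries correlated at 0.256, 0.104, -0.512 and 0.196, and those of LSD libraries at 0.435, -0.056, -0.136 and 0.006. With the replicate block, 1751 genes were higher and 2073 lower on HSD, and 300 and 132 differed between the diets. Promoter motifs, GATAAG or TGATAA, were not run, since no sequence was used here.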

Other observations

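Of 18 pathogen recognition and stress-secreted genes, 5 were lower and 3 higher on HSD, beside 21.2% and 17.9% of all genes tested. A separate list of 5 antimicrobial and immune-induced peptide genes held 1 lower, 1 higher and 3 not called. Its summed level was 262.3 to 296.4 normalized CPM in the libraries labelled grn RNAi, against 402.6 to 561.5 in controls. Dro and IM33 belong to this list. Dro, which encodes the antimicrobial peptide Drosocin, was higher by 1.95 ± 0.34 on the log2 scale, at 7.18, 2.49, 2.15 and 2.63 normalized CPM in the libraries labelled grn RNAi, against 0.232, 0.504, 1.09 and 0.223 in controls (limma adjusted p = 0.00037). IM33 was lower by -0.74 ± 0.10. Among the 18 genes, the peptidoglycan recognition gene PGRP-LA was lower by -1.32 ± 0.21 and Tep3, a thioester-containing protein gene, by -0.58 ± 0.11.

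Of 10 hemocyte markers 2 were higher and 2 lower, near the 17.9% and 21.2% of all genes tested. Their summed levels were 4518 to 5149 normalized CPM in the libraries labelled grn RNAi and 4574 to 5490 in controls. PPO1 and PPO2, the prophenoloxidase genes of crystal cells, were higher by 0.62 ± 0.14 and 0.77 ± 0.16. PPO2 had 130.1, 139, 127 and 160 normalized CPM in the libraries labelled grn RNAi, against 107, 80.2, 78 and 64.8 in controls, without overlap. The scavenger receptor gene crq was lower by -0.51 ± 0.07.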
